A study of Mus musculus with 12 samples.

Results

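The transcriptome of liver sinusoidal endothelial cells from control mice was described from 6 Affymetrix arrays. These are the 6 of 12 samples in the series that are titled as control cells, and they were taken by that title alone. Each sample was labelled a biological replicate of genotype Ctrl and pooled the livers of 3 mice. For these mice no fuller genotype, age or sex was given in the sources used here. The series' mutant line carries Clec4g-Cre(tg/wt) and Rosa26-N1ICD-IRES-GFP, and whether the controls carried either allele was likewise not given. Livers were perfused with collagenase through the portal vein and digested for 25 min at 38 °C, and nonparenchymal cells were taken from a 19.3% Nycodenz gradient. Cells were then selected with magnetic beads against CD146, the product of Mcam, a surface protein of many endothelia, so other cells that carry CD146 or survived the gradient could remain. No comparison between genotypes was made.

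Liver sinusoidal endothelial cells line the hepatic capillaries with fenestrae and without an organised basement membrane. They clear modified proteins, hyaluronan, immune complexes and virus-sized particles from portal blood through scavenger, mannose and Fc receptors that feed clathrin-coated vesicles and lysosomes. They also release Wnt, R-spondin and BMP proteins that set the metabolic zones and the iron hormone output of hepatocytes.

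Every gene has 1 value per array, a log2 signal made by RMA, and all values below are on that scale. Means are given ± SD over the 6 arrays (n = 6), and ranks count down from the highest mean among 24704 named genes. Probe sets bind with different strength, so a rank orders signals and not amounts of RNA. Since no detection calls came with the values, olfactory, vomeronasal and trace amine receptor genes, which serve smell and are silent in most tissues, were taken as background. These 1374 genes had a median mean signal of 1.64, against 3.65 over all named genes. The limit of an array was the 95th percentile of their values and lay between 3.08 on control 4 and 3.31 on control 2. By this rule 12642 named genes (51.2%) were above background on all 6 arrays, 8907 were above it on none and 3155 on 1 to 5 arrays. A gene is called not above background where it failed the limit on at least 1 array. With the limit at the 99th percentile of the same receptors, 7806 of the 24704 named genes were above it on all arrays. Counts at this stricter limit below are to be read against that share. Counts at the 95th percentile limit are to be read against the 51.2%, or against the 58.3% of protein-coding genes that were above it.

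**Figure D1:**
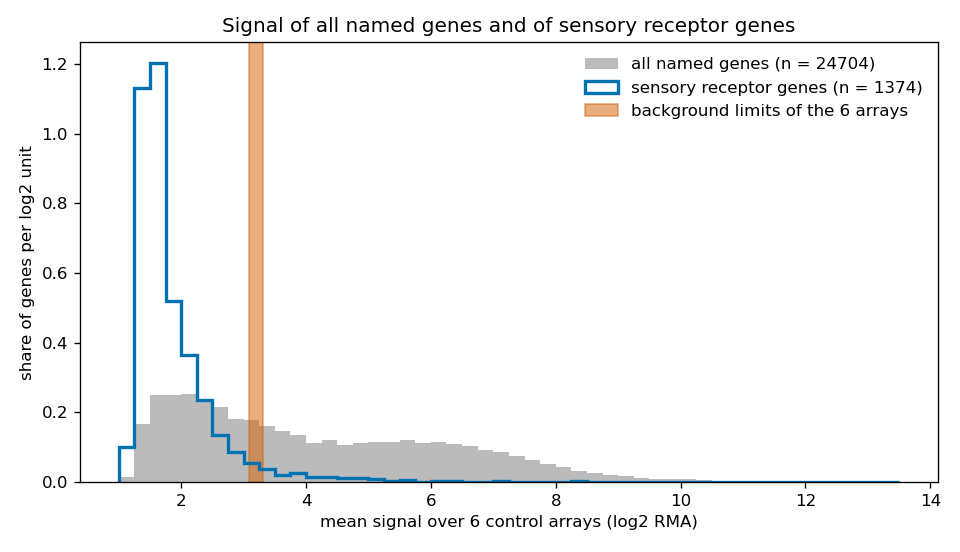
Distribution of mean log2 signal over the 6 control arrays for all 24704 named genes (grey) and for the 1374 sensory receptor genes used as background (blue outline), as the share of genes per log2 unit. The orange band spans the limits of the 6 arrays, 3.08 to 3.31, and most sensory receptor genes lie to its left.

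The arrays correlated with each other at Pearson's r of 0.978 to 0.992 across genes, and no array duplicated another. Control 2 stood apart: without it the lowest r was 0.987, and the first principal component, with 44.7% of the variance, placed it at 38.1 while the other 5 lay between -11.5 and -0.13. The second component, with 21.1%, placed control 1 at 25.8 and the others between -7.60 and 1.78. Counts that moved by more than 1.5 times without one of these arrays are given with and without it.

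The 3 genes taken as markers of the sinusoidal cell had high signals on every array. Clec4g, a C-type lectin that binds glycans, ranged from 12.10 to 12.49, with a median of 12.35, and its mean of 12.34 ± 0.15 was rank 7. Control 2 had its lowest value. Stab2, the scavenger receptor that clears hyaluronan, ranged from 11.10 to 11.44, with a median of 11.34, with a mean of 11.31 ± 0.12 at rank 38. Control 2 was again lowest, and the other 5 arrays lay between 11.25 and 11.44. Lyve1, a hyaluronan receptor shared with lymphatic vessels, ranged from 10.78 to 11.11, with a median of 10.91, with a mean of 10.94 ± 0.14 at rank 68. Its highest values were on controls 1 and 4. The labelled cell type therefore had its defining markers on all 6 arrays.

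Of the longer list of sinusoidal genes, 24 of 25 were above background, and the list's median mean signal was 10.94. Ehd3, an ATPase of endosome recycling, averaged 12.02 ± 0.28, and the IgG receptor Fcgr2b averaged 11.91 ± 0.09. Dnase1l3, a secreted DNA-degrading enzyme, stood at 11.82 ± 0.11, and Oit3, a protein with a zona pellucida domain, at 11.62 ± 0.20. Gpr182, a receptor that takes up chemokines, averaged 11.35 ± 0.10, and Plxnc1, the semaphorin 7A receptor, 11.20 ± 0.19. The transcription factors of the list were also above background, with Maf at 10.91 ± 0.18, Gata4 at 9.15 ± 0.09 and Tfec at 7.52 ± 0.15. The complement-activating lectin Fcna spread widest of these, ranging from 7.54 to 9.02, with a median of 7.97. Its high value was on control 1, the array that also had the highest mean over Kupffer cell markers. Cd4 was the member not above background, with 2.83 to 3.33. Summed over the list, the arrays were close, with means of 9.94 on control 2 to 10.18 on control 4.

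**Figure D2:**
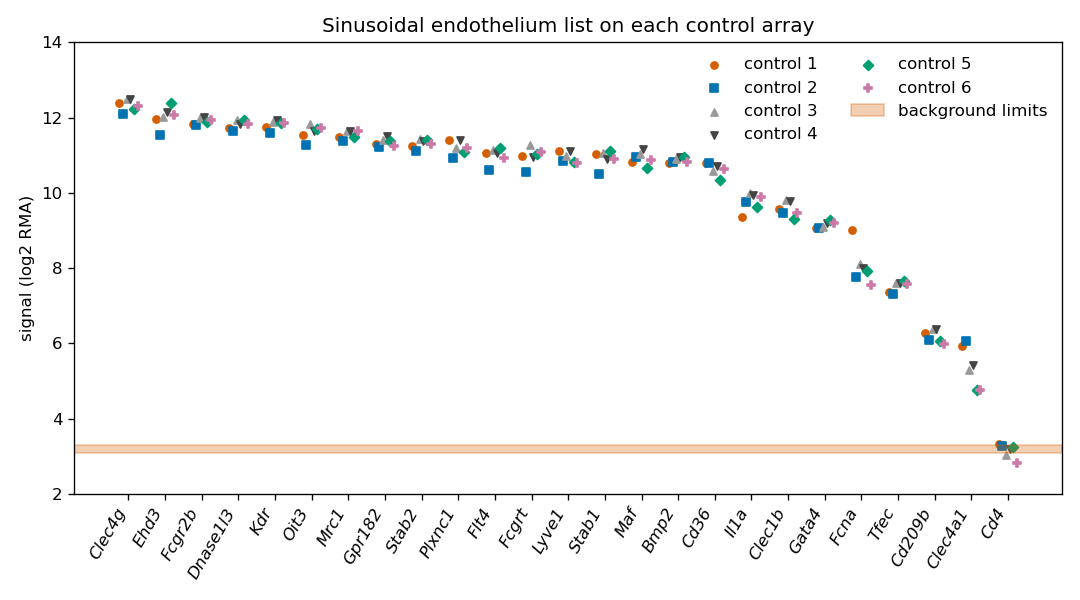
Log2 signal of the 25 listed sinusoidal genes on each control array, ordered by mean, with the background limits of the arrays as an orange band. All genes but Cd4 lie above the band on every array, and Fcna is high on control 1.

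The start of transcription of 4 of these genes is shown, the markers Stab2 and Clec4g beside Ehd3 and Kdr, picked as bright members whose windows differ from those of the markers in base composition. Each line gives the 250 bases before the RefSeq start of the gene on GRCm38.p6, read 5′ to 3′ on the gene's strand, with matches to 5 searched motifs in capitals. One motif was TATAAA, the box that places the start in many regulated genes, and another was GATAAG, which GATA factors read. CCGGAAG stands for the site of ETS factors, CACGTG for the E-box, and GGGCGG for the site of Sp1. Both strands were searched, and no motif contains another. The windows are chr10:87007943-87008192 (minus strand) for Stab2, chr8:3720652-3720901 (minus) for Clec4g, chr17:73804591-73804840 (plus) for Ehd3 and chr5:75978456-75978705 (minus) for Kdr. An entry for Lyve1 was not among the sequences used here.
Stab2: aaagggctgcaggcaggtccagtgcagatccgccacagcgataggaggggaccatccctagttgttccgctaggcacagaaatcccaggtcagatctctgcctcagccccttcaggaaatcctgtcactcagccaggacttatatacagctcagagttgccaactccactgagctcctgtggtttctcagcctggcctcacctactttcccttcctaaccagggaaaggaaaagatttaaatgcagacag
Clec4g: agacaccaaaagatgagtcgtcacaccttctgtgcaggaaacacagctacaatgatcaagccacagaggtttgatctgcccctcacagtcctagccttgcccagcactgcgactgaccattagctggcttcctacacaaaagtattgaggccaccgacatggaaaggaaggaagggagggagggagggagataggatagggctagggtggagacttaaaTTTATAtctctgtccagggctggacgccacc
Ehd3: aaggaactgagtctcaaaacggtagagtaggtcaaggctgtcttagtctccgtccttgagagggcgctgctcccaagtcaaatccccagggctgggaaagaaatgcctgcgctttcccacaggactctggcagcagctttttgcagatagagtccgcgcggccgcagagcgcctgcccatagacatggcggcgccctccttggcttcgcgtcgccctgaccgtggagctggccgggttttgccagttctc
Kdr: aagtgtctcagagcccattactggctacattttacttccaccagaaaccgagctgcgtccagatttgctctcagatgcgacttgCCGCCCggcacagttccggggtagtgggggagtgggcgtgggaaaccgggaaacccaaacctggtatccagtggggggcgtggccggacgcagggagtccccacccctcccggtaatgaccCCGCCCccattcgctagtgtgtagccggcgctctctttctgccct
Clec4g held 1 match to TATAAA, read on the opposite strand as TTTATA close to the start, and Kdr held 2 to GGGCGG, both on the opposite strand. Stab2 and Ehd3 held none of the 5. GC content was 53.2% in Stab2 with 3 CpG dinucleotides and 52% in Clec4g with 4, while Ehd3 and Kdr had 60% and 61.6% with 16 CpG each.

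Over the 15491 named genes with 1 RefSeq start in the table, base composition of the same window differed with signal. In the brightest 25% of genes above background the median GC content was 62% with 18 CpG. In genes not above background the median was 48.8% with 3 CpG. GGGCGG was present in 66.3% of the first and 23.6% of the second, and in 41.7% of all. CCGGAAG was present in 14.7% and 3.92%, against 8.88% of all. TATAAA went the other way, with 6.37% and 18.5%, against 12.6% of all. GATAAG and CACGTG matched 6.09% and 6.64% of all windows. The 100 brightest protein-coding genes with a window held CCGGAAG in 3% and TATAAA in 15%. The 17 sinusoidal genes with a window had a median GC content of 52% and 4 CpG. These shares describe letters in a window and were not tested.

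The highest signals of all came from genes of structural RNAs or related to them. Rn18s-rs5, which RefSeq classes as a pseudogene related to 18S ribosomal RNA, averaged 13.44, and Rn7sk, the 7SK RNA that restrains transcription elongation, averaged 13.01. Selenop, the secreted selenium carrier, followed at 12.74. These 3 genes held ranks 1 to 3 on every array, and quantile normalization gives the same value to the same rank, so their near absence of spread is a property of the scale. Among the 30 brightest genes, predicted genes left out, were also Rmrp (12.04 ± 0.25), the RNA of RNase MRP, Rpph1 (11.47 ± 0.45), the RNA of RNase P, and 5 small nucleolar RNA genes. Of the 100 brightest genes, 71 were protein-coding and 14 were small nucleolar RNA genes. The brightest 100 were stable between arrays, since 98 of them ranked within the first 200 on every single array.

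Among the 30 brightest genes 21 were protein-coding, and 10 of these are on the sinusoidal or the pan-endothelial list. After Selenop, B2m, the light chain of class I histocompatibility molecules, was the brightest and averaged 12.57 ± 0.08, and the class I heavy chain H2-D1 averaged 12.11 ± 0.10. Igfbp7, a secreted binder of insulin-like growth factors, ranged from 11.83 to 12.54, with a median of 12.28, lowest on control 2. Eng, a co-receptor for BMP9 in endothelium, averaged 12.07 ± 0.12, the water channel Aqp1 11.99 ± 0.13, and the VEGF receptor Kdr 11.81 ± 0.13. Ptprb, the endothelial phosphatase that opposes Tie2, averaged 11.71 ± 0.13, and Cdh5, the cadherin of endothelial junctions, 11.50 ± 0.09. Mrc1, the mannose receptor, averaged 11.54 ± 0.11, and Ctsb, a lysosomal protease, 11.48 ± 0.24. Il6st, the shared receptor chain of the interleukin-6 family, averaged 11.62 ± 0.19, and the chaperone Hspa8 11.53 ± 0.27. The membrane proteins Itm2b (11.91 ± 0.05), Serinc3 (12.03 ± 0.18) and Cd81 (11.67 ± 0.22) completed the list of 30. Control 2 alone had the lowest of the 6 values for 17 of the 21 protein-coding genes, H2-D1 and Itm2b were lowest on other arrays, and for Selenop and B2m the lowest value was shared by several arrays.

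Of the scavenger and endocytic receptors, 22 of 29 were above background, where all named genes gave 51.2%. Stab1, the relative of Stab2, averaged 10.91 ± 0.22 and ranged from 10.50 to 11.10, with a median of 10.97. The fatty acid and thrombospondin receptor Cd36 averaged 10.65 ± 0.17, the class A scavenger receptor Msr1 10.05 ± 0.14, the lysosomal Scarb2 10.01 ± 0.16 and the HDL receptor Scarb1 9.24 ± 0.23. Members not above background included Olr1 (2.55), Lrp2 (2.32), Scara5 (2.86) and the hepatocyte asialoglycoprotein receptor Asgr1 (3.44). All 5 of 5 genes named as IgG Fc receptors were above background. Beside Fcgr2b, these were the neonatal receptor Fcgrt at 10.98 ± 0.23, Fcgr1 at 6.37 ± 0.46, Fcgr3 at 5.98 ± 0.42 and Fcgr4 at 5.97 ± 0.40. The last 3 are also macrophage receptors. Their SDs were larger than that of Fcgr2b, and each had its highest value on control 1, at 7.19, 6.67 and 6.65.

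The machinery behind these receptors was above background in 29 of 31 genes. The clathrin heavy chain Cltc averaged 10.26 ± 0.10, the adaptor Dab2 9.96 ± 0.23, the late endosome GTPase Rab7 9.47 ± 0.34 and the lysosomal membrane proteins Lamp1 and Lamp2 10.97 ± 0.12 and 10.70 ± 0.14. The neuronal dynamins Dnm1 (3.18) and Dnm3 (3.62) were not above background, while the widely used Dnm2 stood at 8.21 ± 0.10. Of the Rab GTPases 44 of 59 were above background, of the proton pump subunits that acidify lysosomes 17 of 24, and of the cathepsins 11 of 22. The last is close to the 51.2% of all named genes. The cathepsins above background included Ctsd at 10.80 ± 0.13, Ctsl at 10.58 ± 0.08 and Ctss at 9.52 ± 0.42. Caveolar and fenestral genes were above background in 10 of 12. Cavin2 averaged 9.91 ± 0.07, the fenestral diaphragm gene Plvap 9.20 ± 0.22, Cav2 8.54 ± 0.20 and Cav1 7.15 ± 0.31. The muscle forms Cav3 (2.72) and Cavin4 (2.18) were not.

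All 24 of 24 genes shared by endothelia were above background, where all named genes gave 51.2%. Beside those named above, the adhesion receptor Adgrl4 averaged 10.89 ± 0.13, Pecam1 10.71 ± 0.12, the angiopoietin receptor Tek 10.42 ± 0.06 and Tie1 10.08 ± 0.23. Mcam, whose product was used to select the cells, averaged 8.46 ± 0.22 at rank 804. Etv2, an embryonic endothelial factor, was near the limit with 3.35 to 3.87. In the VEGF, angiopoietin and Tie group 13 of 19 were above background. The receptors Flt4 (range 10.62 to 11.19), Flt1 (9.85 ± 0.14), Nrp1 (10.63 ± 0.13) and Nrp2 (9.62 ± 0.08) were among them. Of the ligands, Vegfb (6.94), Vegfc (6.31) and Vegfa (6.12) were above background, while Vegfd (2.83), Pgf (2.49) and Angpt1 (2.75) were not. Angpt2, the antagonist ligand of Tek, averaged 5.88 ± 0.24.

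Junction genes were above background in 18 of 23. The tight junction gene Cldn5 averaged 9.05 ± 0.09, and its scaffold Tjp1 9.33 ± 0.16. Over the claudin family 8 of 23 were above background, and Cldn1 (3.34), Cldn2 (2.21) and Cldn10 (2.01) were not. Of 15 connexins 5 were, among them the vascular Gja4 (8.51 ± 0.18), Gja1 (8.03 ± 0.20) and Gja5 (5.49 ± 0.26). The cadherins showed a like pattern, with 8 of 23 above background, Cdh5 and Cdh13 (7.94 ± 0.19) at their head and Cdh11 (2.90) below the limit. At the 99th percentile limit 2 claudins, 3 connexins and 5 cadherins remained above it, and these 3 families were below the share of all named genes.

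Blood clotting and vessel tone genes followed. Of the haemostasis genes 18 of 22 were above background. F8, coagulation factor VIII, ranged from 11.05 to 11.55, with a median of 11.31, with rank 39. Pros1, the cofactor of activated protein C, averaged 10.05 ± 0.17, the tissue factor inhibitor Tfpi 8.63 ± 0.12, thrombomodulin Thbd 7.81 ± 0.33 and Vwf 8.24 ± 0.41. The initiating tissue factor F3 (3.03) and the factors F7 (3.56), F5 (3.65) and F13a1 (3.23) were not above background. Of the vasoactive genes 18 of 24 were. These included the adrenomedullin receptor parts Calcrl (10.61 ± 0.16) and Ramp2 (9.27 ± 0.13), the endothelin-converting Ece1 (9.76 ± 0.16), the natriuretic peptide receptor Npr1 (9.46 ± 0.03) and the endothelial nitric oxide synthase Nos3 (7.63 ± 0.14). The inducible and neuronal synthases Nos2 (3.43) and Nos1 (3.14) were not.

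Transcription factors of the endothelial list were above background in 34 of 37. The ETS family, which drives endothelial genes, had 19 of 24 members above background, with Ets2 at 10.13 ± 0.15, Elk3 at 9.58 ± 0.13, Fli1 at 9.55 ± 0.06, Ets1 at 9.54 ± 0.07 and Erg at 8.57 ± 0.13. Of the SOX factors 11 of 19 were above background, a share of 57.9% that was close to the 51.2% of all named genes. The endothelial group Sox18 (8.74 ± 0.12), Sox17 (7.08 ± 0.20) and Sox7 (6.73 ± 0.18) was among these SOX factors. Of 6 GATA factors 4 were, Gata4, Gata2 (6.54 ± 0.09), Gata6 (4.62 ± 0.38) and Gata3 (4.19 ± 0.32), while Gata5 (3.30) and the erythroid Gata1 (2.42) were not. Of the Kruppel-like factors 14 of 17 were, with the flow-responsive Klf2 at 8.57 ± 0.15 and Klf4 at 6.60 ± 0.30. Under the stricter 99th percentile limit 5 SOX and 2 GATA factors remained above it. The 5 of 19 SOX factors were a smaller share than the 7806 of 24704 over all named genes. Epas1, the hypoxia-inducible factor 2 alpha gene, averaged 9.99 ± 0.17. The lymphatic regulator Prox1 ranged from 3.01 to 4.42, with a median of 3.86 and was below the limit on control 2. The list's mean was lowest on control 1, at 6.86, and 6.96 to 6.99 on the other arrays.

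Of the HOX genes, which pattern the body axis, 15 of 38 were above background, led by Hoxb5 (5.99 ± 0.18), Hoxa5 (5.79 ± 0.25), Hoxa4 (5.67 ± 0.20), Hoxb4 (5.41 ± 0.42), Hoxb3 (5.16 ± 0.18) and Hoxb6 (5.04 ± 0.46), all of the A and B clusters. The other developmental families had 3 of 9 PAX, 3 of 10 LIM homeobox and 6 of 15 T-box factors above background. All 4 shares were below the 51.2% of all named genes, and HOX and T-box factors were alike with 39.5% and 40%. Lhx6 averaged 6.78 ± 0.29 and Tbx2 6.62 ± 0.12. Of other factors, 30 of 40 nuclear receptors, 7 of 8 interferon regulatory factors and 5 of 6 STAT factors were above background. Of the numbered Zfp zinc finger genes 228 of 341 were. At the 99th percentile limit 5 HOX, 0 PAX, 1 LIM homeobox and 1 T-box factors remained above it. So did 18 nuclear receptors and 104 of the 341 zinc finger genes, the latter close to the 7806 of 24704 over all named genes.

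Genes for secreted signals to the liver parenchyma were above background in 25 of 26. Bmp2 and Bmp6, which drive hepcidin output in hepatocytes, averaged 10.88 ± 0.07 and 9.53 ± 0.16. Wnt2 (8.55 ± 0.17), Wnt9b (7.11 ± 0.33) and Rspo3 (8.56 ± 0.21), which maintain the pericentral zone, were above background on every array. Hepatocyte growth factor, Hgf, averaged 8.18 ± 0.41 and Tgfb1 9.60 ± 0.12. The interleukin Il6 was not above background, with 1.42 to 1.72. Over whole families, 10 of 19 Wnt ligands, 7 of 10 Frizzled receptors, 8 of 19 BMP and GDF ligands and 7 of 22 FGF ligands were above background. The share of Wnt ligands, 52.6%, was close to the 51.2% of all named genes. At the 99th percentile limit 2 Wnt ligands, 3 Frizzled receptors, 3 BMP and GDF ligands and 1 FGF ligand remained above it. Fzd4, the Norrin receptor, averaged 9.07 ± 0.06. Of the guidance families, 14 of 20 semaphorins, 6 of 9 plexins, 5 of 8 ephrins and 8 of 13 Eph receptors were above background. Plxnd1 (10.30 ± 0.19), Sema6a (10.06 ± 0.21), Ephb4 (9.36 ± 0.18) and Efnb1 (9.07 ± 0.15) were among the brightest of each. At the stricter limit 7 semaphorins, 3 ephrins and 2 Eph receptors remained.

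The Notch pathway, which specifies arterial endothelium, had 32 of 36 members above background in these cells. Of all named genes 51.2% were, and of protein-coding genes 58.3%. Of the receptors, Notch1 averaged 8.68 ± 0.26, Notch4 7.48 ± 0.12, Notch2 5.40 ± 0.39 and Notch3 3.90 ± 0.29. Of the ligands, Dll4 averaged 8.79 ± 0.24, Jag1 6.22 ± 0.37 and Dll1 6.07 ± 0.18, while Jag2 (2.76) and Dll3 (3.14) were not above background. Of the target repressors, Hes1 averaged 7.60 ± 0.27, Hey1 4.42 ± 0.38 and Hey2, which was near the limit, 3.48 ± 0.11. Genes listed for arterial and periportal endothelium were above background in 16 of 16, including Ltbp4 (10.56 ± 0.18), Ntn4 (9.71 ± 0.18) and Efnb2 (8.09 ± 0.25). Those listed for central veins were in 14 of 15, including Plpp1 (11.10 ± 0.09), Kit (9.53 ± 0.15) and Thbd. Both lists had their highest array mean on control 5, at 7.07 and 7.69, against medians of 6.79 and 7.45. The cells were pooled over the whole lobule, so zones cannot be told apart.

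Continuous capillary genes were above background in 11 of 14. Gpihbp1, the anchor of lipoprotein lipase, averaged 11.20 ± 0.15, the fatty acid binder Fabp4 10.73 ± 0.22 and Cd300lg 10.52 ± 0.20. Aplnr (2.73), Apln (3.30) and Car4 (3.11) were not above background. Lymphatic genes were in 7 of 9, of which Flt4 and Lyve1 are shared with sinusoids. The other lymphatic members were dim, with Pdpn at 4.48 ± 0.19, Mmrn1 at 4.36 ± 0.68 and Foxc2 at 4.79 ± 0.39. With the 99th percentile limit 2 lymphatic genes remained above it.

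Of the antigen presentation list 20 of 25 were above background. H2-K1 averaged 10.17 ± 0.14, the peptide transporter Tap1 7.53 ± 0.21, the invariant chain Cd74 9.38 ± 0.22 and the class II chain H2-Ab1 8.74 ± 0.26. The class II transactivator Ciita, at 2.26 on control 2 and 3.81 to 4.24 elsewhere, and the co-stimulator Cd80 (3.65) each failed the limit on control 2, and Cd86 averaged 5.33 ± 0.40. Without control 2, 23 of the 25 were above background. Of the class I and II histocompatibility genes 21 of 33 were. Of the innate sensors 19 of 23 were, and 10 of 12 Toll-like receptors. Tlr3, the receptor of double-stranded RNA, averaged 7.98 ± 0.22 and Tlr4, the endotoxin receptor, 7.26 ± 0.24. Its partner Ly96 averaged 8.11 ± 0.74, with its highest value, 9.22, on control 4. With the 99th percentile limit 10 sensors and 3 Toll-like receptors remained above it.

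The chemokine genes Cxcl16 and Cxcl9 averaged 10.07 ± 0.23 and 9.50 ± 0.40. Of the chemokines 18 of 33 were above background, close to the 51.2% of all named genes. Of the chemokine receptors 8 of 21 were, led by the scavenging receptor Ackr2 (7.35 ± 0.10). Of the interleukins 10 of 37 were, and Il1a averaged 9.76 ± 0.24. Leukocyte adhesion genes were above background in 14 of 15. Jam2 averaged 10.80 ± 0.20, Cd47 10.52 ± 0.13, Vcam1 8.34 ± 0.11, Icam1 7.75 ± 0.21 and Selp 7.38 ± 0.24, while Sele stood at 3.92 ± 0.16. Interferon-stimulated genes were in 17 of 18, including Ifitm3 (10.73 ± 0.20) and Bst2 (10.69 ± 0.30), with Mx1 (2.04) as the exception. Of the C-type lectin domain genes 23 of 52 were above background, headed by Clec4g and Mrc1. Under that stricter limit 7 chemokines, 3 chemokine receptors, 4 interleukins and 14 C-type lectin domain genes remained above it. Each was a smaller share than the 7806 of 24704 over all named genes.

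Families of general cell work divided in a way that limits what a low signal can say. Mitochondrial ribosomal proteins were above background in 73 of 76, complex I subunits in 32 of 34, proteasome subunits in 35 of 37 and chaperonin subunits in 8 of 9. Cytosolic ribosomal proteins, which every cell needs, were in 30 of 54, with a median mean signal of 4.04, and in 14 at the 99th percentile limit. Rplp1 averaged 10.44 ± 0.19 and Rplp0 4.05 ± 0.71. Gapdh, a glycolytic gene of all cells, ranged 1.34 to 1.96 and was not above background on any array, and the elongation factor Eef1a1 averaged 4.61 ± 0.72. Actb (10.77 ± 0.21) and Tubb5 (9.76 ± 0.24) had high signals. A signal at or below the limit is therefore not the absence of a transcript here.

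Metabolic families fell on both sides of the 51.2% of all named genes. Of the cytochrome P450 genes 26 of 93 were above background. Cyp4b1 averaged 11.25 ± 0.12 at rank 42, and the retinoic acid hydroxylase Cyp26b1 9.02 ± 0.44. Of the UDP-glucuronosyltransferases, which conjugate drugs and bilirubin in hepatocytes, 1 of 16 was above background, Ugt2b34 at 4.32 ± 0.16, and 2 were without control 5. Of the glutathione S-transferases 15 of 23 were, led by Gstp1 (8.99 ± 0.23), a share of 65.2%. Among aquaporins 6 of 12 were, and among ABC transporters 24 of 48, both close to the share of all named genes. At the 99th percentile limit 8 cytochrome P450 genes, 8 glutathione S-transferases, 1 aquaporin and 0 UDP-glucuronosyltransferases remained above it. Matrix genes were above background in 33 of 44 collagens (75%) and 6 of 10 laminins (60%), the latter near the 58.3% of protein-coding genes. The basement membrane genes Col4a1 (8.82 ± 0.23), Col4a2 (8.17 ± 0.24) and Lama4 (8.75 ± 0.11) were among the brightest. Col13a1 stood between Col4a1 and Col4a2. With the 99th percentile limit 5 of the 44 collagens remained above it, a smaller share than the 7806 of 24704 over all named genes.

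Families known from other tissues had smaller shares above background than all named genes, at levels from that of the sensory receptors upwards. None of 35 bitter taste receptors, 19 placental prolactins or 8 voltage-gated sodium channels was above background on all arrays. The median mean signals of these families were 1.63, 1.63 and 2.16, against 1.64 for the sensory receptors. Their highest means were 2.62 for Tas2r119, 3.51 for Prl2c1 and 2.63 for Scn8a. Of the GABA and glycine receptors 1 of 21 was above background, 2 were without control 2, and none was at the 99th percentile limit. Of the keratin-associated proteins 4 of 53 were, of the cornified envelope proteins 3 of 35 and of the beta-defensins 7 of 43. Other such families were higher, with median mean signals of 2.82 for keratins, 2.83 for potassium channels, 2.91 for crystallins, 3.36 for alpha-defensins and 3.66 for clustered protocadherins. Above background were 11 of 54 keratins, 8 of 19 crystallins, 4 of 13 alpha-defensins and 24 of 55 clustered protocadherins, and at the stricter limit 1, 4, 1 and 9. Potassium channels were in 27 of 88, including Kcnk6 (8.55 ± 0.17) and Kcnq1 (6.84 ± 0.12), and in 3 at the stricter limit. Of the olfactory, vomeronasal and trace amine genes that set the limit, 39 exceeded it on all arrays. Olfr1454 was the brightest of them and ranged from 7.77 to 10.48, with a median of 7.95, with its highest value on control 2.

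**Figure D3:**
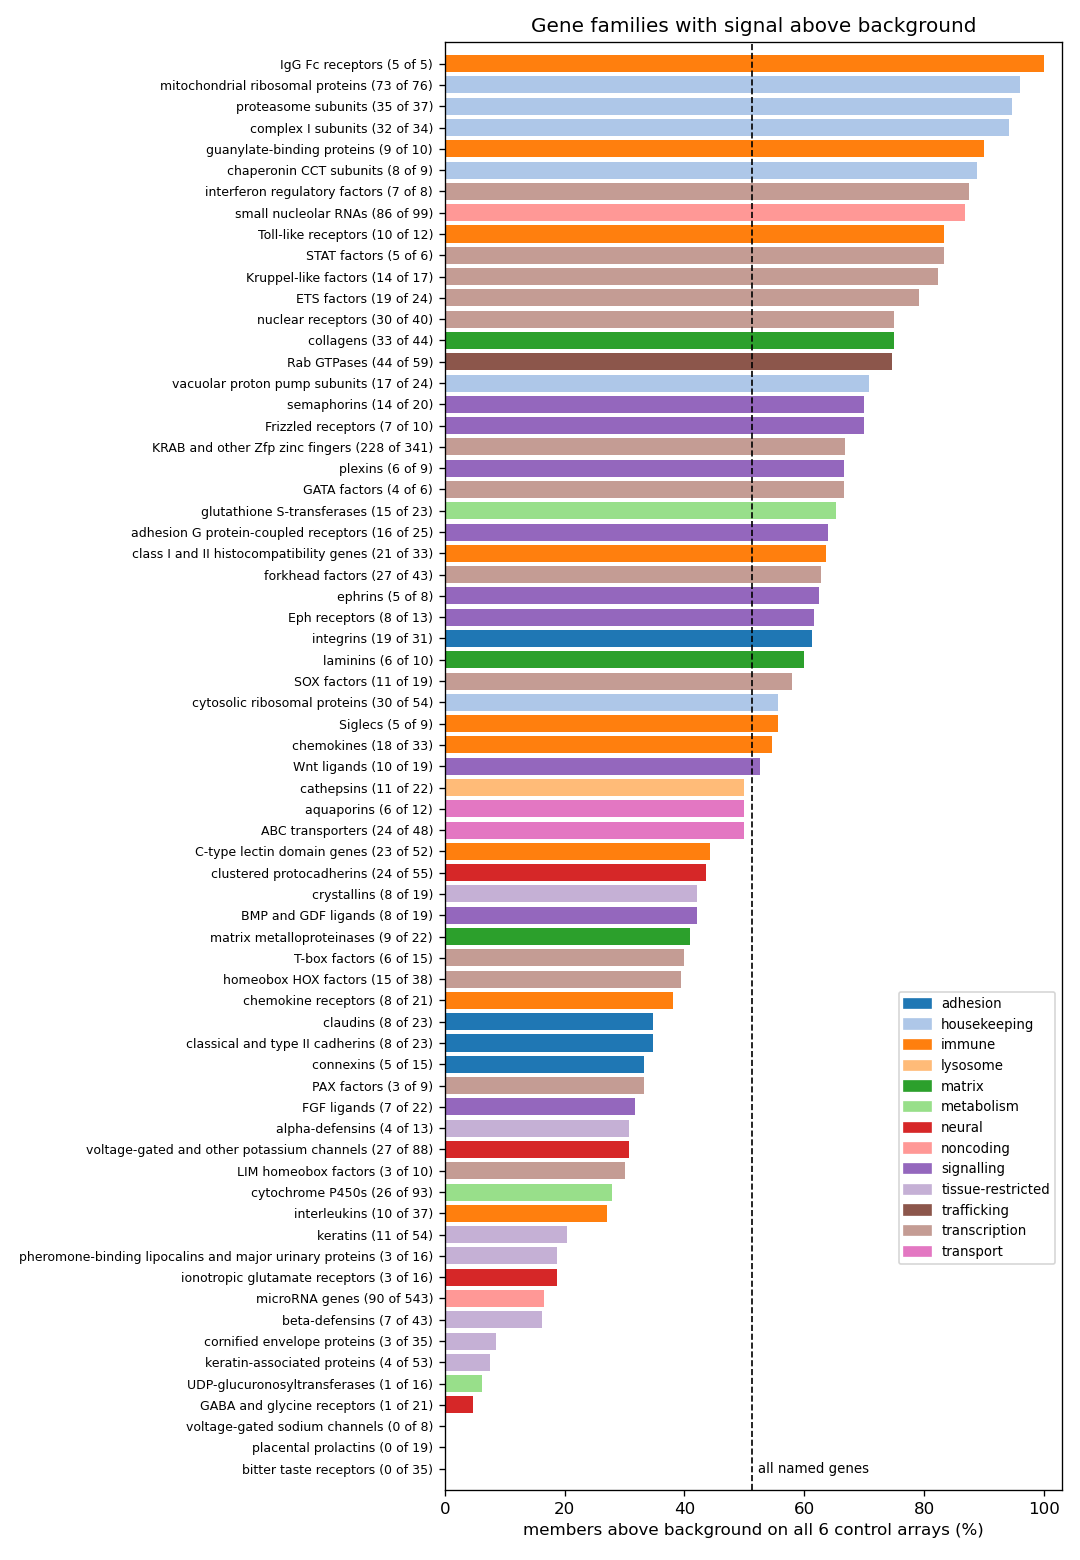
Share of measured members of each gene family above background on all 6 control arrays, with the counts in brackets and the class of family by colour. The sensory receptors that set the limit are not drawn. The dashed line is the share over all named genes, 51.2%. Families of mitochondrial and proteasome genes lie above it, skin and neural families below it, and immune families on both sides.

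By gene class, 58.3% of 19686 protein-coding genes were above background, 18.2% of 3055 long noncoding RNA genes and 16.6% of 543 microRNA genes. At the 99th percentile limit 37 microRNA genes remained. Small nucleolar RNAs guide the modification of ribosomal RNA, and 86 of 99 of their genes were above background, with a median of 7.48. Snord32a averaged 12.56 ± 0.11, Snord100 12.47 ± 0.13 and Snord33 12.03 ± 0.32. Most such genes lie in introns, and of 62 whose surrounding measured gene was above background 54 were too, as were 13 of 16 whose surrounding gene was not. Surrounding genes were found by position on either strand, here and for microRNA genes. Snord15b lies within Rps3, and they averaged 11.65 ± 0.36 and 6.38 ± 0.17. Snord87 lies within Snhg6, and they averaged 11.41 ± 0.39 and 6.45 ± 0.34. Among long noncoding RNAs Malat1 averaged 10.32 ± 0.23, Tug1 7.68 ± 0.16 and the imprinted Peg13 6.94 ± 0.15.

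MicroRNA genes are shown by their mature sequences for genes named below and for the 4 seeds shared by genes above background, the seed being bases 2 to 8 that pair with targets, in capitals. They are RefSeq entries on GRCm38.p6, and 461 of 543 measured microRNA genes had one.
mmu-miR-126a-3p: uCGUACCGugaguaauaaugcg
mmu-miR-1954: aCUGCAGAgugagacccuguu
mmu-miR-210-3p: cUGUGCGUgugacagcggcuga
mmu-miR-181c-5p: aACAUUCAaccugucggugagu
mmu-miR-181d-5p: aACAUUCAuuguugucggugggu
mmu-miR-25-3p: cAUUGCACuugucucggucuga
mmu-miR-92b-3p: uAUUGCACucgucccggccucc
mmu-let-7a-5p: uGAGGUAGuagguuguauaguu
mmu-let-7i-5p: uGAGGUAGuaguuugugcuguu
mmu-miR-149-3p: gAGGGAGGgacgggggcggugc
mmu-miR-1943-5p: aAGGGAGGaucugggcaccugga
Mir126a, whose microRNA is known as abundant in endothelium, lies within Egfl7 (chr2:26591402-26591423 for the mature arm, plus strand). Its probe set ranged 2.97 to 3.50 and passed the limit on 3 arrays, whereas Egfl7 averaged 10.16 ± 0.12. Mir1954 lies within Eng (chr2:32652342-32652362, plus strand) and averaged 7.04 ± 0.21. Whether such a signal came from the mature form, its precursor or the surrounding transcript was not tested.

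Mir181d averaged 6.93 ± 0.44 and Mir181c 4.82 ± 0.21. They share the seed ACAUUCA. Of the other genes with that seed, Mir181a-1 (1.42), Mir181a-2 (3.28), Mir181b-1 (1.54) and Mir181b-2 (2.06) were not above background. Mir92b (5.74 ± 0.45) and Mir25 (4.27 ± 0.23) share AUUGCAC. Mirlet7a-1 (4.37 ± 0.56) and Mirlet7i (3.81 ± 0.19) share GAGGUAG, and Mir149 (4.11 ± 0.50) and Mir1943 (4.56 ± 0.52) share AGGGAGG. The other measured let-7 genes had means of 1.17 to 2.95 and were not above background. Another miR-92 gene, at 1.71, was not either. Mir210, known to respond to low oxygen, averaged 5.93 ± 0.33. Of 208 microRNA genes within a measured gene above background, on either strand, 43 were above it, as were 14 of 131 within a measured gene that was not.

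Markers of other liver cells were measured on all arrays. In bulk samples, fewer cells of a type and less RNA per cell cannot be told apart. All 18 of 18 Kupffer cell and macrophage genes were above background, against 51.2% of all named genes. Clec4f, a lectin of Kupffer cells, ranged from 8.85 to 10.44, with a median of 9.44, Cd5l from 8.39 to 9.91, with a median of 8.85, and Vsig4 from 8.27 to 9.32, with a median of 8.82. Control 1 had the highest value for 16 of the 18 genes. The list's mean was 8.59 on control 1 and 7.41 on control 6, with the other 4 arrays between 7.66 and 7.93.

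All 23 of 23 hepatocyte genes were above background too, against the same 51.2%. Alb, the albumin gene, ranged from 9.18 to 10.13, with a median of 9.51, and Glul, an enzyme of pericentral hepatocytes, from 10.13 to 10.38, with a median of 10.23. The list's mean was 7.57 on control 1, 7.01 on control 2 and 6.96 on control 4, against 6.28, 6.29 and 6.28 on controls 3, 5 and 6. Glul differed less between arrays than this mean, and which cells gave its signal was not tested. Stellate cell and fibroblast genes were above background in 17 of 18, with 4 above the 99th percentile limit. Their mean ran from 4.70 on control 1 to 5.74 on control 5, where 15 of 18 were highest. Dcn, a small proteoglycan, ranged from 6.92 to 9.14, with a median of 8.14, and Ecm1 from 8.32 to 9.22, with a median of 8.57. Mural genes were in 11 of 13, with Acta2 at 7.28 ± 0.48, and 5 at the stricter limit.

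Blood cell lists were less complete. Neutrophil genes were above background in 7 of 14, and in 0 at the 99th percentile limit. Their mean was 4.57 on control 1 and 4.14 on control 5, against 3.41 to 3.60 on the others. Members not above background included Ltf (2.64), Camp (2.46) and Elane (2.52), while those above it included Lcn2 (5.09), S100a8 (5.61) and S100a9 (5.14). Monocyte and dendritic genes were above background in 7 of 14, B and plasma cell genes in 6 of 11, T and NK cell genes in 7 of 17 and platelet genes in 6 of 10. These shares, with that of the neutrophil genes, ran from 41.2% to 60%, around the 51.2% of all named genes. At the stricter limit 2 B cell, 1 T and NK cell and 1 platelet gene remained. The T cell receptor chain gene Cd3d (2.40), the B cell gene Ms4a1 (3.00) and the platelet gene Gp6 (2.46) were not above background. Cd3g, a T cell gene on the same list as Cd3d, was above it. Clec1b, listed for platelets, is also a sinusoidal gene and averaged 9.57 ± 0.19. None of 7 erythroid genes was above background on all arrays, with Hbb-bs at 1.91 and Alas2 at 3.31. Cholangiocyte genes were in 8 of 11 and mesothelial genes in 5 of 8, with 1 and 2 at the stricter limit. Dividing-cell genes were in 13 of 15, with 3 at the stricter limit, and Mki67 averaged 5.66 ± 0.28.

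**Figure D4:**
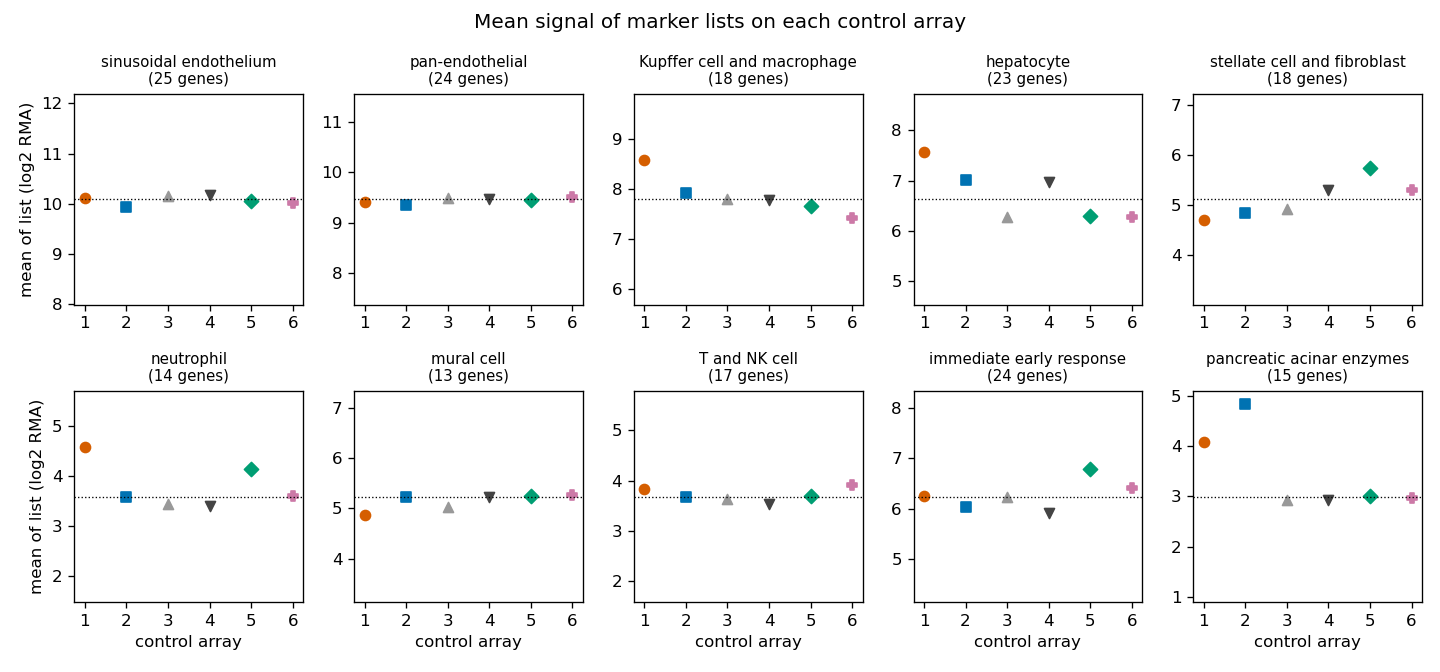
Mean log2 signal of 10 gene lists on each control array, with a dotted line at the median of the 6 arrays and panels of equal height. The endothelial lists differ little between arrays, Kupffer and neutrophil genes are highest on control 1, hepatocyte genes on controls 1, 2 and 4, stellate and immediate early genes on control 5, and pancreatic enzymes on controls 1 and 2.

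Spread between the arrays was small for most genes above background. The median SD was 0.196, 51.9% of genes had an SD under 0.2, and 448 genes (3.54%) had one over 0.5. Without control 2 the last count was 289, and without controls 1 and 2 it was 177. The median SD was 0.23 in the dimmest 25% of genes by mean signal and 0.15 in the brightest 25%. For 1318 genes (10.4%) one array lay apart from the other 5 by Dixon's ratio, which marks about 1 in 20 groups of values by chance. That array was control 2 for 897 of them, 404 high and 493 low. It was control 1 for 148 and control 5 for 148, and the other arrays gave 29 to 49 each. Without control 2 the share was 6.20% of genes.

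**Figure D5:**
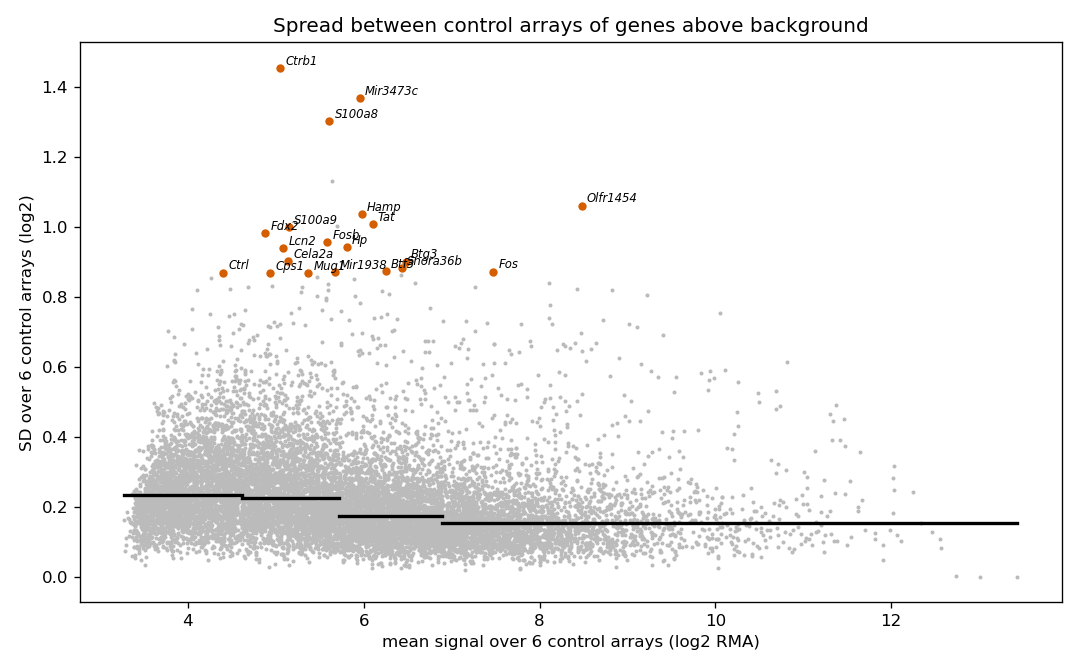
SD over the 6 control arrays against mean log2 signal for the genes above background, with the median SD of each successive 25% of genes by signal as a black line and the 20 most variable named genes in orange. The lines fall from 0.23 to 0.15, and Ctrb1 has the largest SD, 1.45.

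The genes of largest spread fell into sets that peaked on the same arrays. The pancreatic enzyme gene Ctrb1, a chymotrypsinogen, had 6.62 on control 1 and 7.21 on control 2 but 4.01 to 4.23 on the other 4. The elastase gene Cela2a had 6.19 and 6.39 there and 4.45 to 4.79 elsewhere. The chymotrypsin-like gene Ctrl likewise had 5.05 and 5.84, against 3.58 to 4.18. A list of 15 acinar enzymes was then drawn up, after these values were seen, and its mean was 4.09 on control 1 and 4.83 on control 2, against 2.92 to 3.02 on the others. On control 2, 13 of the 15 had their highest value. The list includes Cela2a and Ctrl, which prompted it, so its means and counts partly repeat their values. Of these genes 6 of 15 were above background on all arrays and 0 at the stricter limit. Where this signal came from was not tested.

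The calprotectin genes S100a8 and S100a9 of neutrophils had 7.62 and 6.57 on control 1 and 6.52 and 6.04 on control 5. Their lowest values were 4.15 on control 4 and 4.05 on control 3. Lcn2, an acute-phase and neutrophil gene, was likewise high on control 1 (6.20) and control 5 (6.11). The hepatocyte genes Tat (7.87), Hp (7.65), Cps1 (6.29) and Mug1 (6.41) were highest on control 1. Hamp, the hepcidin gene, had 6.92, 6.88 and 6.96 on controls 1, 2 and 4, and 5.25, 5.06 and 4.82 on controls 3, 5 and 6. These are the arrays on which the hepatocyte list was high and low, but Hamp, Tat and Cps1 are themselves members of that list.

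Control 5 was high in immediate early genes, which respond within minutes to stimuli and to tissue handling. Fosb had 7.16 there and 4.39 to 7.16 over the 6 arrays, and Fos had 8.94 and 6.38 to 8.94. Egr1 (7.69), Ccn1 (8.02) and Socs3 (7.30) were also high on it, against medians over the 6 arrays of 6.57, 6.59 and 5.97. The list mean was 6.79 on control 5 and 5.91 on control 4, and 14 of its 24 genes were highest on control 5. Across the list 21 of 24 genes were above background on all arrays, with Dusp1 at 9.64 ± 0.42 and Jun at 9.26 ± 0.59.

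Control 2 was high in short noncoding genes and in several other sets, and low in some. Mir3473c had 8.73 on it and 5.19 to 5.64 on the others, and Snora36b had 7.82. Btg3, an antiproliferative gene, had 7.90 there within 5.51 to 7.90, Btf3, a transcription factor gene, 7.74 within 5.26 to 7.74, and Mir1938 was lowest there within 4.32 to 6.66. Over small nucleolar RNA genes above background, the median difference from the median of the other 5 arrays was 0.63 on control 2, -0.54 on control 3 and -0.86 on control 4. Over microRNA genes it was 0.45 on control 2, and over protein-coding genes it was -0.03. The sensory receptors above background gave 0.48, antigen receptor V segments 0.46, beta-defensins 0.44, cytosolic ribosomal proteins 0.31 and long noncoding RNA genes 0.24 on control 2. Among sets lower on it were plexins at -0.31 and semaphorins at -0.30, and sets not given here went either way. Control 2 had 199 genes more than 1 log2 unit above the median of the other arrays and 139 as far below it. Fdx2, a mitochondrial ferredoxin, was low on controls 1 and 2 (3.70 and 3.53) and stood at 5.43 to 5.59 on the others.

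On controls 3, 4 and 6 few genes deviated by more than 1 log2 unit. Control 3 had 2 higher and 26 lower, control 4 10 and 41, and control 6 3 and 12. The lower genes of controls 3 and 4 included Snora15, at 6.21 and 6.19 against 7.89 at its highest. Rab6b was the largest upward deviation on control 3, at 5.90 within a range of 3.98 to 5.90. Ccl3, a macrophage chemokine, was low on control 4, at 3.70 within 3.70 to 5.89. The T cell gene Cd3g was high on control 6, at 4.81 within 3.33 to 4.81.

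After the 3 at the top, 7 further genes had the smallest SDs. Vps52, a tether of vesicles at the Golgi, had a mean of 7.15 ± 0.02, and Vps41, a subunit that brings late endosomes to lysosomes, 7.78 ± 0.02. Clic4 averaged 10.03 ± 0.02 at rank 181, Faf1 6.42 ± 0.02, Utp6 6.09 ± 0.03 and Rgl1 8.87 ± 0.03. Msantd4 averaged 7.78 ± 0.02. Of the reference genes often used for scaling, 12 of 13 were above background, with Hprt at 8.33 ± 0.05, Tbp at 6.37 ± 0.21 and Polr2a at 7.48 ± 0.13.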

How the data were processed

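RNA of liver sinusoidal endothelial cells was measured on Affymetrix arrays, and 6 control samples were analysed. The authors deposited log2 expression values made with RMA (background correction, quantile normalization, summary), per the submitters' processing notes. The chip definition, software and genome build were not given in the sources used here. Controls 2 to 6 shared their quantiles to within 0.001 and control 1 had a minute offset, so a shift of most genes would not show.

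Of 25428 probe sets, 24705 had a gene symbol in the 2018 platform annotation, and 24672 genes were found in RefSeq (GRCm38.p6), the source of classes, coordinates and sequences. For 1 symbol with 2 probe sets the brighter was used. Means, SDs, ranks and counts above a limit were computed in Python 3.11.15 with pandas 2.3.3 and numpy 2.4.6, after a test on simulated data. The number of arrays limits the precision. One group has no contrast, so no p-value is given.

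The text names the 3 marker genes, the 30 brightest, the 20 most and 10 least variable, some of those deviating most on 1 array, and the brightest and some dim members of each list and family. Lists, families and this rule were chosen with earlier results of these data known, and the pancreatic list and the fit without controls 1 and 2 after values were seen. Long noncoding RNAs, the microRNAs shown and the genes around small RNAs were also named with values known. Members of 38 lists and 68 families were counted. Alternatives changed the limit, the normalization, the summary over arrays and the arrays included.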

Additional observations from a re-analysis of the deposited data

Results flagged for a closer look

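Of 309 genes named here, 26 had 1 array far from the other 5, a share of 8.41%, and so did the means of 2 of 39 lists. Chance gives about 1 in 20, and all genes above background gave 10.4%. Some named genes were picked by their spread and some were not above background, so these shares are of unlike sets. On control 2, 15 of the 26 genes stood apart. The capillary genes Fabp4, at 11.16 against at most 10.78 elsewhere, and Gpihbp1, at 11.48, were high there, as was the receptor partner Ramp2 at 9.52. The ETS factor Ets1 (9.67) and the class II chain H2-Ab1 (9.25) were high too. So were Rplp0 (5.43), Mir3473c (8.73), Mirlet7a-1 (5.45) and Snhg6 (7.13), and Hbb-bs (2.84) within the range of background. On the same array Stab1 (10.50), Cd81 (11.24), Ptprb (11.44), Tubb5 (9.28) and Ciita (2.26) were low.

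Control 1 was far from the others for Hp (7.65), Hgf (8.97) and Rgl1 (8.92), which were high on it, and for Eef1a1 (3.21), which was low. The means over continuous capillary genes (6.49) and over endothelial transcription factors (6.86) were lowest on it. Rn18s-rs5 (13.44), Rn7sk (13.01) and Selenop (12.74) differed on it by less than 0.01. H2-D1 (12.31) and Cyp4b1 (11.48) were high on control 3, Sox17 (7.48) on control 5, and the Y-linked Kdm5d (5.13) on control 4.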

How the results depend on the processing

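No paired analysis was possible because 1 group was described and no result came from a test. With the limit at the 99th percentile of sensory receptors, 7806 genes were above background and 209 of them had an SD over 0.5. By the scaled median absolute deviation 263 genes spread over 0.5. Leaving out each array in turn gave 12676 to 13074 genes above background, 289 to 546 with an SD over 0.5, 6.20% to 9.30% with 1 array far from the others and a median SD of 0.160 to 0.204. Without control 2 the count with an SD over 0.5 and the share with a far array were at these low ends. Without controls 1 and 2, chosen after seeing the data, 177 genes had an SD over 0.5 and 5.49% had a far array. The sinusoidal list kept 24 members above background under each alternative, and Clec4g kept rank 7 where ranks were recomputed. Counts for the other lists and families stayed within 1.5 times under both further normalizations. The 99th percentile limit moved 57 of 106 such counts beyond that, the array median as limit 20, and a limit passed on 4 of 6 arrays 11, with BMP and GDF ligands rising from 8 to 15 and FGF ligands from 7 to 11. Leaving out 1 array moved GABA and glycine receptors, to 2 without control 2, and UDP-glucuronosyltransferases, to 2 without control 5. Of the 100 brightest genes 95 to 100 were shared with each alternative. Near the limit, signal over background sets what can be called.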

Other observations

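The lists of heat shock genes and of hypoxia and glycolysis genes had median mean signals of 6.87 and 5.61. All 13 of 13 heat shock genes were above background, with the inducible Hspa1a at 10.13 ± 0.37, Hspa1b at 9.24 ± 0.47 and the endoplasmic reticulum chaperone Hspa5 at 10.21 ± 0.41. Among hypoxia and glycolysis genes 16 of 20 were above background, with Ndrg1 at 9.21 ± 0.16, Ldha at 8.01 ± 0.22 and Car9 (2.80) below the limit. With the 99th percentile limit 10 of these remained.

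The labels give no sex. The Y-linked genes Eif2s3y (5.89 ± 0.33), Uty (5.79 ± 0.28) and Kdm5d (4.78 ± 0.19) were above background on all 6 arrays, and Xist, the RNA of the silenced X chromosome, ranged 2.19 to 2.39, not above background. Each array was a pool of 3 mice.

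Transporters of the solute carrier group included Slc43a3 at 11.06 ± 0.11, the prostaglandin carrier Slco2a1 at 10.19 ± 0.37, the nucleoside carrier Slc29a1 at 9.91 ± 0.11 and the iron exporter Slc40a1 at 9.27 ± 0.36. The last is also listed for macrophages, and its highest value, 9.89, was on control 1. These 4 were named after their values were seen.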
